A study of Canis lupus familiaris with 6 samples.

Results

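The aryl hydrocarbon receptor axis was described here through 6 genes: the receptor AHR, its partner ARNT, the repressor AHRR, the cytochromes CYP1A1 and CYP1B1, and the ADP-ribosyltransferase TIPARP. Each symbol matched 1 row of the deposited expression table, so the set is 6 of 20500 rows. All 6 reached the mean of 1 TPM (a transcript abundance corrected for transcript length and for the library total) that was required for testing, as did 10874 genes in all. The set was chosen by symbol, and selected on the TPM of CYP1A1 in control and treated libraries, whose difference was already known. The differences of the 6 genes between the groups are therefore given as a description, with no p-value. How many of the 6 passed the test run over all genes is given beside the share of all genes tested. Nothing is read from that count.

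The cells were HU-HSA-2, a canine line derived from hemangiosarcoma, a cancer of the cells that line blood vessels. The 3 control libraries came from cells that the labels place under DMSO, the solvent, and the 3 libraries labelled GNE140 from cells under (R)-GNE-140, which blocks lactate dehydrogenase. Exposure lasted 72 hours in both groups, in DMEM with fetal bovine serum, and polyA RNA was sequenced. The dose is not given in the sources used here, all libraries are from 1 line, and the labels do not say whether replicates were separate cultures.

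AHR is a transcription factor of the bHLH-PAS family that is held in the cytosol by HSP90 and its co-chaperones until a ligand binds. It then enters the nucleus, pairs with ARNT and switches on genes that carry xenobiotic response elements. CYP1A1 is the classical readout of this pathway, and AHRR and TIPARP are induced by the receptor and restrain it in turn. In human endothelial cells CYP1A1 and CYP1B1 are also known to respond to shear stress, and both oxidise polycyclic hydrocarbons and estrogens.

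CYP1A1 (ENSCAFG00845017370) was at 3.37, 3.03 and 2.80 TPM in the control libraries and at 8.19, 6.27 and 7.40 TPM after (R)-GNE-140. The lowest treated library lay above the highest control, and the treated libraries varied more among themselves than the controls. The means were 3.07 ± 0.287 and 7.29 ± 0.965 TPM (SD, n = 3 each), a ratio of 2.38. These are low levels: 17.7% of the genes tested had a lower mean TPM. On the log2(TPM + 1) scale, which understates changes at low TPM, the difference was 1.02 with a standard error of 0.12. That was the 25th largest rise among the 10874 genes tested. On log2(TPM + 0.1) the difference was 1.22, and on log2(TPM + 5) it was 0.60. Removing any 1 library gave 0.94 to 1.11.

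AHRR (ENSCAFG00845014897), which competes with AHR for ARNT, was at 10.46, 10.14 and 9.19 TPM in controls and at 13.32, 11.79 and 11.81 TPM in treated cells. These groups also lay apart, and the gap between them was narrower than for CYP1A1. The means were 9.93 ± 0.661 and 12.3 ± 0.878 TPM (SD, n = 3 each), with a log2 difference of 0.28 and a standard error of 0.09. The difference stayed between 0.21 and 0.32 under the 15 other ways of processing.

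CYP1B1 (ENSCAFG00845020438), the other xenobiotic cytochrome of the set, was at 3.32, 2.54 and 2.53 TPM in controls and at 4.24, 2.89 and 3.31 TPM in treated cells. The groups overlapped, since control replicate 1 lay above 2 of the treated libraries. Its means were 2.80 ± 0.453 and 3.48 ± 0.691 TPM (SD, n = 3 each), with a log2 difference of 0.23 and a standard error of 0.15. It had the lowest level of the set, with 11.3% of the genes tested below it. Without GNE140 replicate 1 the log2 difference was 0.12.

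TIPARP (ENSCAFG00845023055), which modifies AHR and marks it for degradation, was at 32.55, 33.25 and 35.86 TPM in controls and at 38.67, 38.12 and 35.03 TPM in treated cells. The groups overlapped through control replicate 3 and GNE140 replicate 3. The means were 33.9 ± 1.74 and 37.3 ± 1.96 TPM (SD, n = 3 each), with a log2 difference of 0.13 and a standard error of 0.07.

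The receptor itself, AHR (ENSCAFG00845005867), was at 8.55, 7 and 8.02 TPM in controls and at 8.17, 8.13 and 8.46 TPM in treated cells. All treated values fell inside the control range. The means were 7.86 ± 0.788 and 8.25 ± 0.180 TPM (SD, n = 3 each), and the log2 difference of 0.07 was smaller than its standard error of 0.09. It was 0.12 without control replicate 1, and its sign turned without control replicate 2 (-0.0045).

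ARNT (ENSCAFG00845019671), the partner that AHR shares with the hypoxia-inducible factors, was at 25.19, 20.85 and 22.68 TPM in controls and at 20.91, 20.16 and 23.11 TPM in treated cells. The groups overlapped, with the highest value in control replicate 1 and the lowest in GNE140 replicate 2. The means were 22.9 ± 2.18 and 21.4 ± 1.53 TPM (SD, n = 3 each), with a log2 difference of -0.09 and a standard error of 0.08. Single libraries moved it, to -0.02 without control replicate 1, -0.16 without control replicate 2, -0.05 without GNE140 replicate 2 and -0.15 without GNE140 replicate 3.

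**Figure D1:**
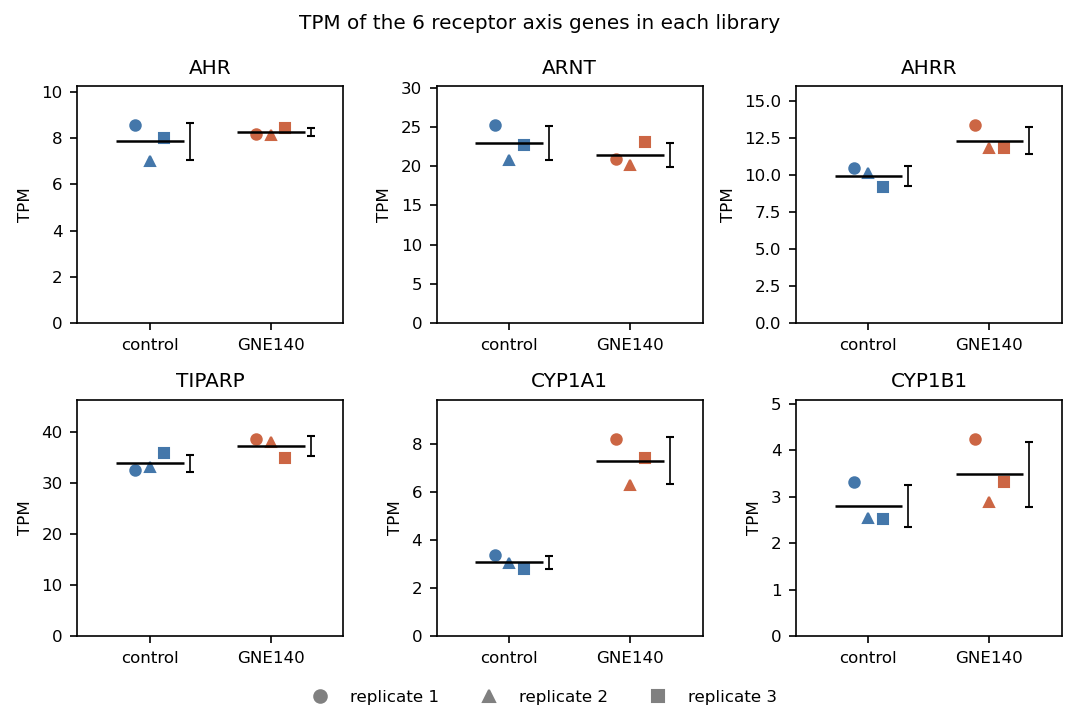
TPM of each gene (vertical axes, from 0) in the control and GNE140 libraries. Points are libraries, horizontal lines group means and bars the SD over 3 libraries; the groups lie apart for CYP1A1 (up to 3.37 against at least 6.27 TPM) and AHRR (up to 10.46 against at least 11.79 TPM) and overlap for the other 4 genes.

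By limma across all genes with Benjamini-Hochberg adjustment at 0.05, 1 of the 6 genes, CYP1A1, was called higher and 0 were called lower, where 1.31% of all genes tested were called higher and 1.72% lower (3.03% in either direction). In 2 of the 6, CYP1A1 and AHRR, all treated values lay above all control values, where this held for 11.2% of the genes tested. Since the set was chosen with this comparison known, nothing is read from either count. Of the 6 log2 differences, 5 were above 0, as were 51.1% of those of all genes tested, whose median was 0.0040. Nothing is read from this count either.

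**Figure D2:**
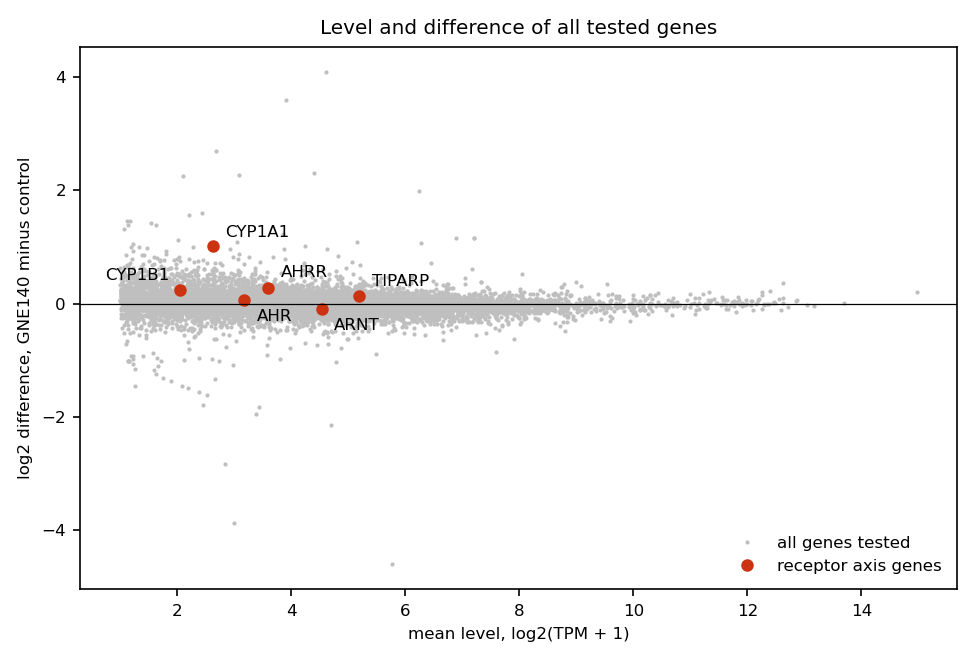
Log2 difference between GNE140 and control on log2(TPM + 1) (vertical axis) against mean level (horizontal axis, log2 scale) for the 10874 genes tested, in grey, with the 6 receptor axis genes in red. CYP1A1 stands at 1.02 above the grey band at low level, and the other 5 genes lie within the band between -0.09 and 0.28.

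The order of levels by TPM, which is per transcript length, was TIPARP, ARNT, AHRR, AHR, CYP1A1 and CYP1B1 in both groups by the mean. In controls CYP1A1 and CYP1B1 overlapped in TPM, and the other neighbours in this order did not. In treated cells AHR and CYP1A1 overlapped instead, since CYP1A1 in GNE140 replicate 1 (8.19 TPM) was above AHR in that library (8.17 TPM). The ratio of CYP1A1 to CYP1B1 within a library was 1.02, 1.19 and 1.11 in controls and 1.93, 2.17 and 2.24 in treated cells. The ratio of CYP1A1 to AHR was 0.392 ± 0.0419 in controls and 0.883 ± 0.116 in treated cells (SD, n = 3 each). The ratio of the repressor AHRR to ARNT, for which AHR and AHRR compete, was 0.415, 0.486 and 0.405 in controls and 0.637, 0.585 and 0.511 in treated cells. In all 3 of these ratios the treated libraries lay above the controls. CYP1A1, on which the set was selected, is the numerator of the ratios to CYP1B1 and AHR, so nothing is read from this count. The ratio of ARNT to AHR lay apart the other way, at 2.95, 2.98 and 2.83 in controls and 2.56, 2.48 and 2.73 in treated cells. The ratio of AHRR to AHR overlapped between the groups, at 1.27 ± 0.157 and 1.49 ± 0.123 (SD, n = 3 each).

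Within the groups, replicate 1 was often the highest library. Control replicate 1 was the highest control for AHR, ARNT, AHRR, CYP1A1 and CYP1B1, 5 of the 6 genes, where it was the highest for 36.3% of all genes tested. GNE140 replicate 1 was the highest treated library for AHRR, CYP1A1, CYP1B1 and TIPARP, 4 of the 6, against 44.1% of all genes tested. Replicate 2 was the highest for 0 of the 6 in either group, beside 22.5% of all genes tested in controls and 16.5% in treated cells.

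The level of CYP1A1 followed that of AHRR over the 6 libraries (Pearson r = 0.948 on log2(TPM + 1)), followed CYP1B1 less closely (r = 0.743) and TIPARP (r = 0.680), and had r = 0.438 with AHR and -0.341 with ARNT. The points share the 2 groups, so any gene that differs between the groups correlates with any other. Among 8778 genes with a symbol and a mean of at least 5 TPM, 117 had an r of at least 0.95 with CYP1A1, and AHRR was 120th. Among the 5 most alike were the endothelial zinc finger factor VEZF1 (r = 0.995), TXNIP, an arrestin that restrains glucose uptake (0.994), the angiogenic factor VEGFA (0.992) and the malic enzyme ME1 (0.992). TXNIP was at 10.65, 9.24 and 9.76 TPM in controls and at 18.89, 16.40 and 18.36 TPM in treated cells. Its treated libraries stood in the same order as for CYP1A1 and its controls did not. Likeness to CYP1A1 over these libraries is how TXNIP was picked, so nothing is read from the shared order. The log2 differences of VEZF1, TXNIP, VEGFA and ME1 were 0.17, 0.79, 0.38 and 0.21, given as a description because the genes were picked for their likeness.

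The closest relative of CYP1A1, CYP1A2, is its neighbour on the RefSeq assembly UU_Cfam_GSD_1.0. CYP1A2 was listed at 0, 0.07 and 0 TPM in controls and at 0.25, 0.07 and 0.07 TPM in treated cells. These values are near the rounding of the table and no fold is given. Reads of close paralogs can be shared by an estimate of this kind, and little signal was assigned to CYP1A2 in any library. Of the 3 nearest protein-coding genes on each side of CYP1A1, 4 were tested. These were ARID3B, CLK3, EDC3 and CSK, with log2 differences of -0.07, -0.04, 0.01 and 0.04. By limma 0 of the 4 were called, where 3.03% of all genes tested were, so nothing is read from this count.

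The pathway around the 6 genes was described with 9 lists, which held 114 tested genes. Of these, 4 rose and 2 fell by limma after adjustment over all genes, 5.26%, beside 3.03% over all genes tested, and the median log2 difference of the 114 was -0.0073. The lists were written with earlier results of these data known, among them those of NQO1 and CYP51A1.

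Among the proteins that hold and release the receptor in the cytosol, 0 of 8 tested genes rose and 0 fell by limma, and their log2 differences ran from -0.05 to 0.05. HSP90AB1, the constitutive HSP90, was at 1589 ± 97.5 TPM in controls and 1648 ± 52.3 TPM in treated cells (SD, n = 3 each). The co-chaperone DNAJA1, the exportin XPO1 and the ubiquitin ligase STUB1 had differences of 0.05, 0.05 and -0.05, of which the last turned sign (0.000896) without GNE140 replicate 2.

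Of the 11 tested bHLH-PAS relatives and coactivators, 0 rose and 0 fell. ARNT2, a second partner for factors of this family, was at 21.79, 18.92 and 17.68 TPM in controls and at 13.85, 14.58 and 15.87 TPM in treated cells. The groups lay apart, with treated values lower, as in 11.8% of all genes tested, and the log2 difference of -0.37 did not pass (SE 0.09, limma adjusted p = 0.0627). It passed when genes under a mean of 5 TPM were left out. The hypoxia-inducible factor EPAS1 was low, at 1.42 and 2.21 TPM (log2 0.40, limma adjusted p = 0.227). Its relative HIF1A was at 145 and 154 TPM (log2 0.09). The clock gene PER3 was at 2.78 and 3.57 TPM (log2 0.28), and neither HIF1A nor PER3 passed. In EPAS1 and PER3 all treated values lay above all control values, as in 11.2% of all genes tested.

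Among other genes that AHR is known to induce in human or mouse cells, 18 had a row, and those under a mean of 1 TPM were not tested. Of those not tested, SERPINB2, picked here after seeing its values, was at 0, 0.12 and 0.06 TPM in controls. In treated cells SERPINB2 was at 0.94, 0.91 and 1.38 TPM, and no fold is given so near 0. CYP2S1 (0.15 and 0.07 TPM) and IDO1 (0.05 and 0.03 TPM), also not tested, had lower treated means, and their groups overlapped. Of the 10 tested, 1 rose and 0 fell. The risen gene was NQO1, a quinone reductase that NRF2 also controls, from 401, 369 and 390 TPM to 514, 486 and 479 TPM (log2 0.35, SE 0.05, limma adjusted p = 0.00933). NQO1 stayed called whichever of the 6 libraries was removed, but not without the variance trend. PTGS2, the inducible cyclooxygenase, was at 6.83, 6.77 and 13.61 TPM in controls and at 15.00, 23.77 and 15.57 TPM in treated cells. Control replicate 3 stood near the treated values, and the log2 difference of 0.96 did not pass (SE 0.25, limma adjusted p = 0.0758), while it passed without that library (log2 1.26). CCNG2, a cyclin that slows the cell cycle, was at 11.5 and 14.5 TPM (log2 0.31), NFE2L2, the gene of NRF2, at 88.2 and 97.7 TPM (log2 0.15), and the Notch target HES1 at 41.0 and 34.1 TPM (log2 -0.24). None of these 3 passed, and HES1 was at -0.39 without control replicate 2 and at -0.10 without control replicate 3. The list median was 0.05, with 5 differences above 0 and 5 below. In 4 of the 10, NQO1, PTGS2, CCNG2 and NFE2L2, all treated values lay above all control values, as in 11.2% of all genes tested. In 0 of the 10 did they all lie below. The list was written with earlier results known, so nothing is read from these counts.

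The coregulators of the receptor had 0 calls among 16 tested genes and a median of -0.02. The general factor GTF2B was at 42.0 and 48.7 TPM (log2 0.21), the acetyltransferase EP300 at 24.3 and 27.4 TPM (log2 0.17), RELB at 3.94 and 4.88 TPM (log2 0.24) and KLF6 at 124 and 114 TPM (log2 -0.12), and none passed. In GTF2B and EP300 all treated values lay above all control values, as in 11.2% of all genes tested. KLF6 ran from -0.20 to -0.02 with single libraries removed, and RELB reached 0.38 without GNE140 replicate 3. Genes of the kynurenine route, which makes natural ligands of AHR from tryptophan, were mostly low. Of 15 genes 5 were tested and 0 were called. KYAT1, a kynurenine aminotransferase, was at 2.15, 2.03 and 1.93 TPM in controls and at 3.18, 3.37 and 2.88 TPM in treated cells. Its groups lay apart, with treated values higher, as in 11.2% of all genes tested. The difference did not pass (log2 0.45, SE 0.12, limma adjusted p = 0.0902), although it passed without the variance trend. IL4I1, an amino acid oxidase, was at 0.767 and 1.25 TPM (log2 0.34), and its groups also lay apart. The transporter SLC16A10 was at 3.17 and 2.71 TPM (log2 -0.17) and AFMID at 113 and 119 TPM (log2 0.07). The groups overlapped in SLC16A10 and AFMID, and IL4I1, SLC16A10 and AFMID did not pass.

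Genes that supply cytochromes P450 with electrons and heme moved in both directions. Of 21 tested, 1 rose, 1 fell and 19 did not pass, with a median of -0.04. All treated values lay above all control values in 5 and below them in 5, beside 11.2% and 11.8% of all genes tested. CYB5B, the cytochrome b5 of the mitochondrial outer membrane, fell from 75.78, 76.68 and 73.78 TPM to 59.95, 59.93 and 61.81 TPM (log2 -0.31, SE 0.05, limma adjusted p = 0.0137). Removing a library left CYB5B called in 4 of 6 cases, and it was no longer called without control replicate 1 (log2 -0.31) and without GNE140 replicate 3 (log2 -0.33). CYB5R1, a cytochrome b5 reductase, rose from 34.08, 39.43 and 38.40 TPM to 49.77, 45.09 and 48.17 TPM (log2 0.35, SE 0.07, limma adjusted p = 0.0355). Of the 6 removals of a library, CYB5R1 stayed called only in that of control replicate 2, and it was also not called without the filter on low values, without the variance trend or with the replicate block. HMOX1 and BLVRA, which degrade heme to bilirubin, were at log2 0.31 and 0.25, ALAS1, the first enzyme of heme synthesis, at 0.26, and the ferredoxin FDX1 at -0.30. None of these 4 passed (limma adjusted p = 0.0561, 0.101, 0.0663 and 0.0604). With genes under a mean of 5 TPM left out HMOX1 and FDX1 passed, FDX1 also passed without GNE140 replicate 2 (log2 -0.39), BLVRA passed without control replicate 3 (log2 0.33), and HMOX1 and ALAS1 passed under the 3 other scalings. POR, which passes electrons to CYP1A1 in the endoplasmic reticulum and was picked here after seeing its values, was at 31.79, 30.76 and 33.69 TPM in controls and at 30.02, 26.82 and 29.59 TPM in treated cells (log2 -0.15, limma adjusted p = 0.280).

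Of 14 tested conjugating enzymes and exporters, 1 rose and 0 fell, with a median of 0.06. All treated values lay above all control values in 6 and below them in 2, beside 11.2% and 11.8% of all genes tested. GSTM3, a glutathione transferase, rose from 20.79, 24.91 and 23.11 TPM to 33.03, 31.42 and 33.31 TPM (log2 0.49, SE 0.07, limma adjusted p = 0.0135). It lost its call without GNE140 replicate 3 (log2 0.48). GSTK1, GSTA4, MGST3 and the efflux pump ABCB1 did not pass, at log2 0.24, 0.16, -0.12 and -0.33. Among the relatives of TIPARP and the enzymes that remove ADP-ribose, 1 of 19 tested genes rose and 0 fell, with a median of 0.02. Here the groups lay apart with treated values higher in 4 and lower in 1. These lists were written with earlier results known, so nothing is read from the counts of groups that lay apart. ADPRS, an ADP-ribose hydrolase, rose from 4.70, 4.84 and 4.51 TPM to 7.2, 7.46 and 6.83 TPM (log2 0.52, SE 0.09, limma adjusted p = 0.0200), and was not called once any of the 6 libraries was removed, with log2 differences from 0.50 to 0.55. It was also not called without the filter on low values or with the replicate block. PARP8, PARP6, PARP3 and PARP16 did not pass, at log2 0.21, 0.19, -0.11 and -0.16, and PARP16 was at -0.03 without control replicate 3.

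Of the 39 other cytochrome P450 genes with a row, 12 were at 0 in all libraries and 10 were tested. Of these 0 rose and 1 fell, with a median of -0.10, and 8 of the 10 differences were below 0. CYP51A1, the sterol demethylase, fell from 35.26, 34.06 and 36.22 TPM to 27.46, 27.42 and 26.51 TPM (log2 -0.36, SE 0.06, limma adjusted p = 0.0143). It lost its call without control replicate 1 and without GNE140 replicate 3. CYP26B1, which degrades retinoic acid, was at 1.97 and 2.99 TPM (log2 0.41, limma adjusted p = 0.194). Its groups lay apart, with treated values higher, as in 11.2% of all genes tested. Those of CYP51A1 lay apart the other way, as in 11.8%. CYP2R1, CYP20A1 and CYP7B1 did not pass, at log2 -0.37, -0.18 and -0.12. CYP2R1 was at -0.22 without control replicate 3 and -0.16 without GNE140 replicate 2, and CYP20A1 at -0.11 and -0.27 without control replicates 2 and 3.

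**Figure D3:**
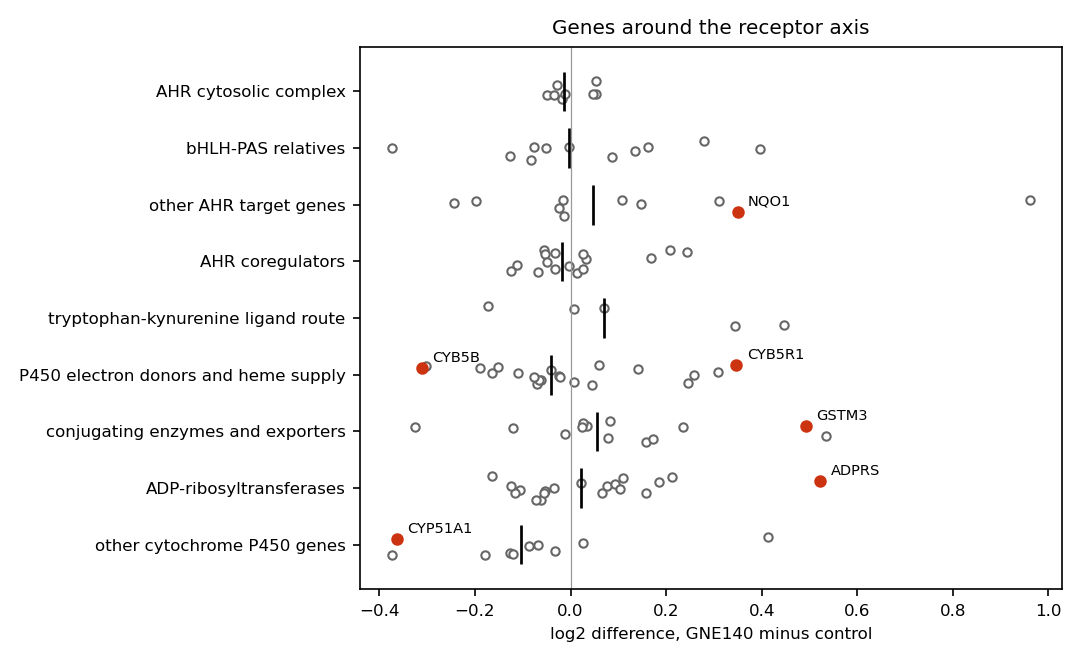
Log2 difference between GNE140 and control on log2(TPM + 1) (horizontal axis) of each tested gene in the 9 lists around the receptor. Filled red points passed limma at an adjusted p of 0.05, open points did not, and black bars are list medians, which lie between -0.10 and 0.07; in the list of other AHR targets NQO1 is the single filled point.

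The endothelial label was checked with 10 markers, of which 9 were tested and 0 were called, beside 3.03% of all genes tested. The difference of ERG was above 0 and those of the other 8 were below 0. In PECAM1, CLDN5, EMCN and ESAM all treated values lay below all control values, as in 11.8% of all genes tested. The groups overlapped in CDH5, KDR, TEK, TIE1 and ERG. PECAM1 was at 304 to 363 TPM and CLDN5 at 579 to 848 TPM over the 6 libraries, while VWF was near 0 (0.02 to 0.13 TPM). Summed over the list the markers took 1434 to 1656 TPM in controls and 1289 to 1372 TPM in treated cells, so this sum moved opposite to CYP1A1. CLDN5 made up the largest part of the sum, at 758 ± 93.4 TPM in controls and 625 ± 40.1 TPM in treated cells (SD, n = 3 each). The 7 fibroblast or mural markers summed to 5.60 to 7.02 TPM in controls and to 7.80 to 10.7 TPM in treated cells, so that sum moved with CYP1A1. COL1A1, PDGFRA and ACTA2 were the 3 tested, all with differences above 0 and 0 called, beside 3.03% of all genes tested. In COL1A1 and PDGFRA all treated values lay above all control values, as in 11.2% of all genes tested, and ACTA2 overlapped. LUM, not tested, had a lower mean in treated cells than in controls (0.15 and 0.23 TPM). DCN (up to 0.08 TPM) and PDGFRB (up to 0.04 TPM) were near 0. The part of either marker shift in the level of CYP1A1 was not tested, and in bulk RNA fewer cells of a type and less RNA per cell cannot be told apart. The 6 leukocyte markers summed to 7.15 to 7.44 TPM in controls and 7.78 to 9.33 TPM in treated cells, of which CD14 made up most, and CD3E was at 0. Of the 6 epithelial markers only 3 had a row that could be used, and these summed to at most 0.26 TPM. Hepatocyte markers summed to at most 0.5 TPM, and CDH1, TTR, SERPINA1 and FGB were at 0 in all libraries.

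Across the other ways of processing, the log2 differences of CYP1A1, AHRR and TIPARP were above 0 in all 15 alternatives and CYP1B1 in all 14 that included it. ARNT was below 0 in all 15 and AHR above 0 in 14. Under the 3 other scalings CYP1A1 ran from 0.97 to 1.06 and AHRR from 0.27 to 0.30.

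**Figure D4:**
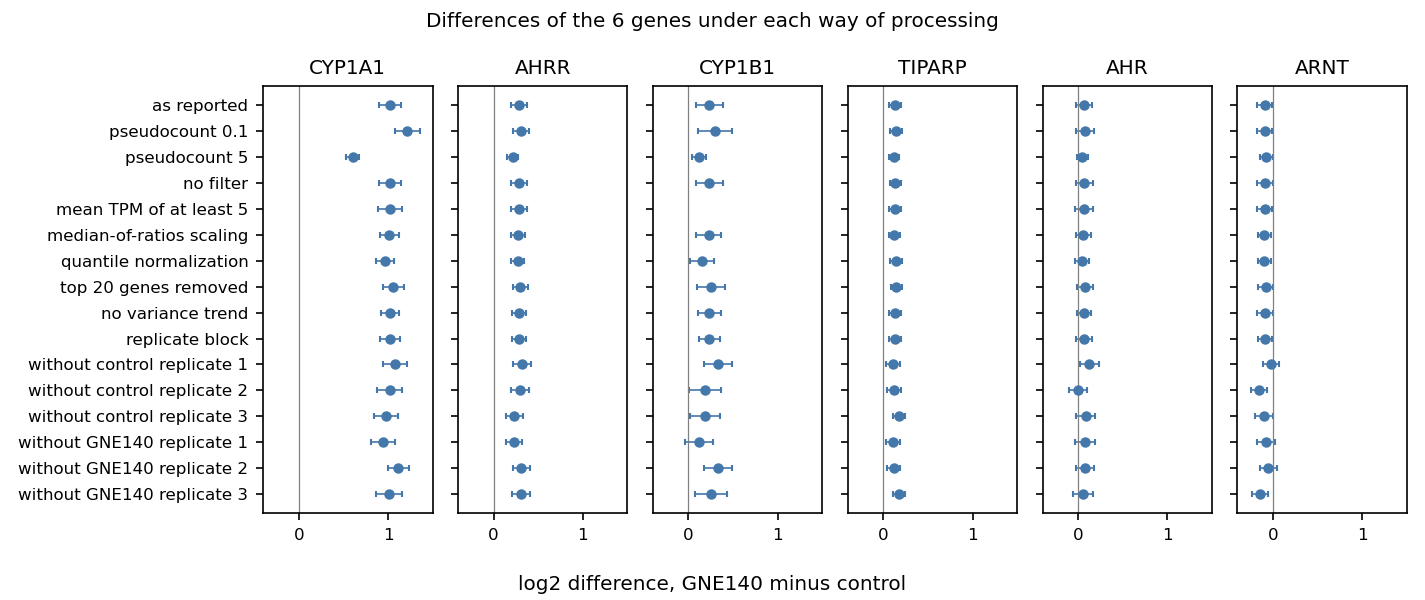
Log2 difference between GNE140 and control (horizontal axes) of each of the 6 genes as reported and under the other ways of processing (rows), with bars of 1 standard error. CYP1A1 moves with the pseudocount (1.22 with 0.1 and 0.60 with 5) and otherwise lies between 0.94 and 1.11, and CYP1B1 has no point where a mean of at least 5 TPM was required.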

How the data were processed

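PolyA RNA from 3 control and 3 (R)-GNE-140 libraries of HU-HSA-2 was measured. The authors deposited TPM values in 1 table, scaled to the same total per library and rounded. The submitters' processing notes name STAR, RSEM and edgeR 3.42.0, and the genome build is not given in the sources used here. TPM keeps no read depth, so depth is unknown, no count test or counting interval is given, and precision is judged from the spread between libraries.

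Row names gave the symbols, and a separate list in the table gave identifiers. Names on more than 1 row (111) were kept out of the lists. Genes with a mean of at least 1 TPM were tested with limma 3.58.1 (R 4.3.3) on log2(TPM + 1), comparing the groups with no other term, with a variance trend and 2-sided Benjamini-Hochberg adjustment at 0.05. The labels do not say that replicates were separate cultures, so a p-value here speaks only to the spread among these libraries, which may be technical.

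The genes and lists were chosen with earlier results of these data known. Named were the 6 genes, called members of each list with up to 4 others of smallest limma p, and the 5 genes most correlated with CYP1A1. A gene so picked is left unreported. Simulated data were used to check the fit. Alternatives covered the pseudocount, filter, scaling, variance trend, the replicate number as a block and the removal of each library. Figures were drawn with matplotlib 3.10.9.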

Additional observations from a re-analysis of the deposited data

How the results depend on the processing

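The count of 329 genes changed over all genes fell to 168 without the filter on low values, 159 without the variance trend and 163 with a replicate block, and ran from 74 to 185 with 1 library left out. Among the genes of the 9 lists, 6 were called as reported, 4 with the replicate block, 4 without the filter and 9 with a mean of at least 5 TPM. With 1 library left out this count ran from 1 (without GNE140 replicate 3) to 6 (without control replicate 3), and was 2 without control replicate 1. Of the 6 called without control replicate 3, 4 were among those called as reported, and BLVRA and PTGS2 were not. Among called genes the share that were higher was 43.2% as reported, 57.9% without the variance trend and, with 1 library left out, from 55.4% down to 33%. The log2 difference of CYP1A1 moved beyond the spread between libraries with a pseudocount of 0.1 (1.22) and of 5 (0.605), and its range with 1 library left out was 0.94 to 1.11. The differences of the other 5 genes moved by less than that spread under each alternative run. STUB1, close to 0, turned sign without GNE140 replicate 2, and ran from -0.0815 to 0.000896 with 1 library left out. HMOX1 and ALAS1 passed under each of the 3 other scalings. Same-numbered libraries of the groups did not deviate together (r = 0.036, 0.009 and -0.098), so the numbers were not taken as pairs. The cause of these changes was not tested. CYP1B1 gives no value at a mean of at least 5 TPM. The depth of the libraries is unknown, and at levels of a few TPM the rounding and the number of reads limit what 3 libraries can show.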
